A study of Arabidopsis thaliana with 12 samples.

Results

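Late seed maturation ends with desiccation, and the comparison described here is the one between wild-type Arabidopsis seeds at 16 days after flowering (16DAF) and the dry wild-type seed. The 4 arrays were chosen by their sample titles: 2 arrays of WT 16DAF seeds and 2 of WT dry seeds, of 12 arrays in the series. All plants were of the Wassilewskija accession and grew in a greenhouse under long days. Developing seeds were excised, and dry seeds are labelled as such. The labels give no age for the dry seeds, so the time from 16DAF to the dry seed is unknown. Drying below stands for this whole interval. The other 8 arrays held WT seeds at 14 days after flowering (14DAF) and seeds of a second genotype, named KD in the labels, at 14DAF, 16DAF and dry, with 2 arrays in each group. The labels do not spell out KD, and the series title speaks of an altered lysine metabolism. No plant was given a treatment. Nothing in the labels says that the 2 arrays of a group came from separate plants or harvests, so a p-value here sets a difference against a spread that may be technical.

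A seed at 16DAF is still connected to the mother plant and fills with protein and oil. In its last phase it loses most of its water, its tissues take on desiccation tolerance, and metabolism stops. The dry seed keeps a store of RNA, part of it made during drying and part of it used when the seed takes up water again. Proteins known for this phase are the late embryogenesis abundant (LEA) proteins and small heat shock proteins, which protect membranes and proteins as water is lost. Gibberellin, the hormone that drives germination, acts against abscisic acid, the hormone of maturation and dormancy.

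Levels were read on Affymetrix ATH1 arrays and deposited as log2 values made with RMA, a method that gives every array nearly the same distribution. Lower quartiles were 3.70 to 3.75 on the 4 arrays and medians were 5.11 and 5.2 at 16DAF against 4.93 and 4.97 in dry seeds. The correlation between the 2 arrays across probe sets was 0.983 at 16DAF and 0.993 in dry seeds. For 3 control transcripts with probes at both ends, the 3′ signal exceeded the 5′ signal by 3.90 ± 0.49 (SD, n = 2, log2) at 16DAF and by 3.35 ± 0.13 in dry seeds. The 16DAF arrays differed, at 3.55 for replicate 1 and 4.25 for replicate 2, and the dry arrays lay at 3.26 and 3.45. The part of these differences in the results was not tested. Of 22746 probe sets tested, 13513 name 1 gene in the annotation used here, so that many known seed genes could not be looked up. Of the markers of other seed and fruit tissues, 2 of 6 seed coat genes had a named probe set, and none of the first 7 endosperm, 6 silique and funiculus or 6 mature embryo genes did. Longer lists of 10 genes each for endosperm and for silique wall and funiculus had 1 measured member apiece. IKU2 of the endosperm list changed by 0.01, and BPEp of the silique wall and funiculus list was 4.53 and 5.08 at 16DAF and 6.75 and 6.62 in dry seeds, a rise of 1.88 (SE 0.204, adjusted p = 4.79e-05). Its part in the other results was not tested. PAP85, a vicilin-like storage protein, lay at 14.23 and 14.26 at 16DAF and at 14.23 and 14.40 in dry seeds, so both stages carried a seed storage transcript near the top of the scale.

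For WT 16DAF replicate 1 the source name gives the KD genotype, while its title, description and genotype entry give WT. KD dry replicate 1 has the opposite conflict, and titles were followed for both. The probe set for LKR/SDH (AT4G33150), the first enzyme of lysine breakdown, separated the 2 genotypes by title: the 6 WT arrays lay between 8.87 and 10.61 and the 6 KD arrays between 12.80 and 13.88. WT 16DAF replicate 1 lay at 9.80 and KD dry replicate 1 at 12.83, each within the range of its titled genotype. The KD signal was the higher one, and nothing used here says where this probe set lies relative to any change in the KD gene. In WT, LKR/SDH was 9.80 and 10.61 at 16DAF and 8.87 and 9.15 in dry seeds, a fall of 1.20 on the log2 scale (SE 0.267, adjusted p = 0.005).

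The 2 WT 16DAF arrays did not sit at the same distance from the dry state. Among the 4457 probe sets that were higher in KD dry than in KD 16DAF seeds, a comparison that shares no array with the WT one, WT 16DAF replicate 2 exceeded replicate 1 in 71.8%, with a median difference of 0.22. Among the 3487 that were lower in KD dry seeds it did so in 37.9%, with a median of -0.13, and over all probe sets in 52.1%, with a median of 0.02. Many of the rises below therefore have a low and an intermediate 16DAF value. Replicate 2 was also the 16DAF array with the larger 3′ excess of the control transcripts (4.25 against 3.55), and its part here was not tested.

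Drying was accompanied by change in 37.3% of all probe sets. At an adjusted p of 0.05 (limma, Benjamini-Hochberg over all probe sets), 4633 rose (20.4%) and 3843 fell (16.9%). The counts of list members given below are to be read against these shares. With a change of at least 1 on the log2 scale required as well, 20.2% were called, of which 10.3% of all rose and 9.94% fell. The 2 dry arrays lay wholly above or wholly below the 2 16DAF arrays for all of these calls, but so they did for 65.5% of all probe sets. The median called rise was 1.0 and the median called fall -1.18. Large changes were more often falls: 190 probe sets fell by at least 4 on the log2 scale and 68 rose by as much, and at a size of 2 the counts were 904 and 579. Of the 190 large falls, 131 ended below the median of the dry arrays, and 32 of the 68 large rises began below the 16DAF median. No detection calls were used, so the size of a change that starts or ends at a dim signal is uncertain. The median change of all probe sets was 0.02. When every array was centred on its own median, 70.5% of the calls were rises in place of 54.7%.

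**Figure D1:**
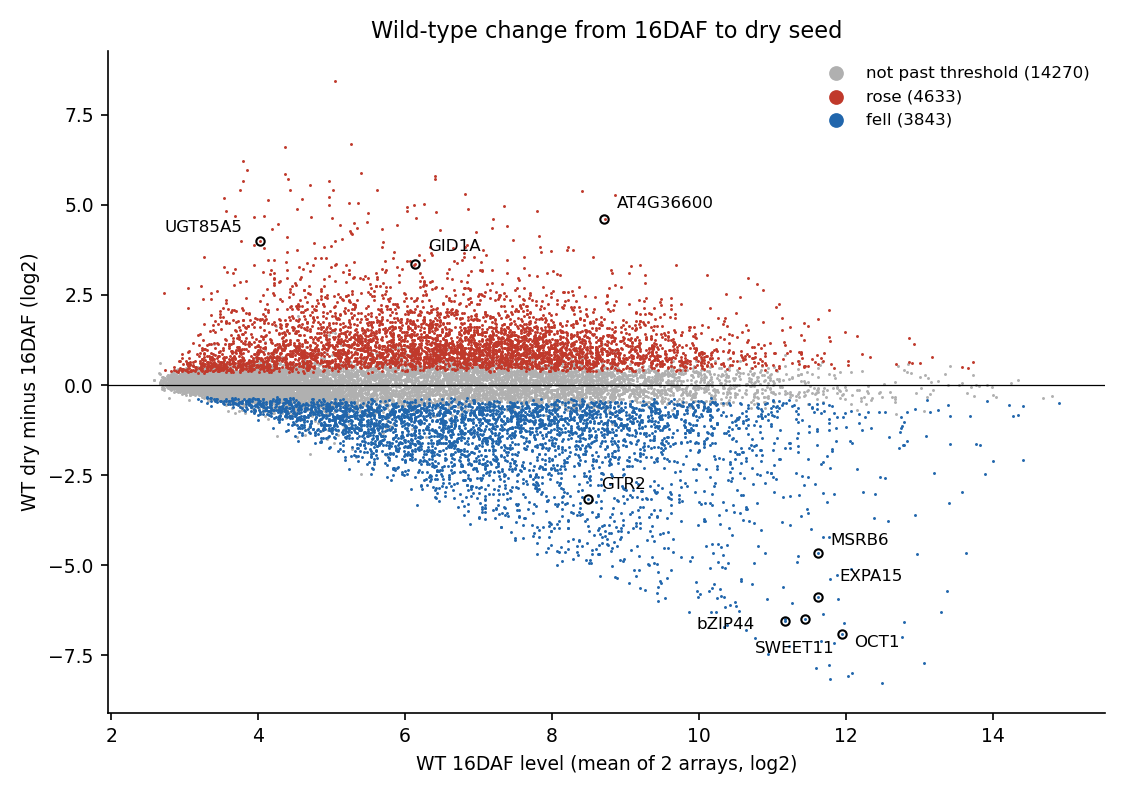
Change from 16DAF to dry WT seed (log2, vertical axis) against the WT 16DAF level (mean of 2 arrays, log2, horizontal axis) for every probe set. Red points rose, blue points fell and grey points did not pass an adjusted p of 0.05; the largest falls, among them OCT1, bZIP44 and SWEET11, start at levels above 11, and ringed points are genes described in the text.

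Among LEA proteins and dehydrins, 16 of 36 probe sets rose and 4 fell, against 20.4% and 16.9% of all probe sets, and the median change was 0.34 against 0.02. In the 15 alternative analyses the rises numbered 13 to 19. M17 had the largest rise among the named genes, from 3.98 and 6.11 at 16DAF to 12.94 and 14.03 in dry seeds. AT4G36600, a member of the LEA list, was at 7.96 and 9.47 at 16DAF and at 13.17 and 13.50 in dry seeds, a rise of 4.62 (SE 0.436, adjusted p = 1.86e-05). Its level at 14DAF had been 5.67 and 5.15, so the transcript climbed over both intervals. LEA18 went from 10.21 and 11.53 to 13.47 and 13.54, and LEA4-5 from 10.02 and 11.11 to 13.13 and 12.90. Both had already risen between 14DAF and 16DAF, by 2.37 and 3.46.

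Another 4 members of the list fell. COR47, a dehydrin known for its response to cold and drought, was 5.90 and 6.30 at 16DAF and 4.21 and 3.97 in dry seeds, a fall of 2.01 (SE 0.228, adjusted p = 6.39e-05). AT3G02480, a list member, fell by 1.67 from a level near 12.8 in both 16DAF arrays. AT1G54410 fell by 2.15 and AT4G39130 by 0.80. The gene with the symbol LEA, already high at 16DAF, moved from 13.08 and 13.26 to 13.91 and 13.98.

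Small heat shock proteins, chaperones that hold unfolding proteins, rose in 7 of 8 probe sets with a median change of 2.65, and in every one of the 15 alternatives 7 rose. AT1G52560 was 5.88 and 7.43 at 16DAF and 10.65 and 10.26 in dry seeds, a rise of 3.80 (SE 0.419, adjusted p = 5.27e-05). AT1G54050 went from 6.6 and 8.5 to 11 and 9.92, and AT5G37670 from 6.90 and 8.31 to 10.01 and 9.97. ATHSP22.0, an endoplasmic reticulum member, started low, at 3.84 and 4.32, and reached 6.09 and 5.50. In each of these genes the higher 16DAF value was that of replicate 2. AT4G21870 changed by 0.19 and did not pass the threshold.

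Hop3, which joins Hsp70 to Hsp90, was 5.32 and 5.92 at 16DAF and 8.65 and 8.46 in dry seeds, a rise of 2.94 (SE 0.277, adjusted p = 1.85e-05). Fes1A, an Hsp70-binding protein, rose by 2.31, from 6.63 and 7.17 to 9.34 and 9.07. These 2 genes were singled out after their values were seen. The 2 measured members of the Hsp70, Hsp90 and Hsp100 list fell instead: Hsp70-2 was 6.32 and 6.6 and then 5.01 and 4.76, and AT3G09440 was 7.38 and 7.78 and then 6.63 and 6.57.

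Of 63 listed antioxidant enzymes 10 were measured. Of these 7 fell (70%, against 16.9% of all probe sets) and none rose, with a median change of -0.84. The methionine sulfoxide reductases MSRA5, MSRB3, MSRB5, MSRB6 and MSRB9 were among the 10, and no catalase or superoxide dismutase was. In the alternatives 5 or 6 members fell and at most 1 rose. MSRB6, a methionine sulfoxide reductase that repairs oxidised methionine, was 11.67 and 11.57 at 16DAF and 6.88 and 7.03 in dry seeds, which is 25.4-fold lower (log2 change -4.67, SE 0.385, adjusted p = 7.88e-06). SAPX, the stromal ascorbate peroxidase, went from 8.65 and 8.60 to 7.48 and 7.33. ATMDAR2, a monodehydroascorbate reductase that regenerates ascorbate, went from 5.85 and 6.08 to 4.76 and 4.59, and GR, a glutathione reductase, from 10.38 and 9.92 to 9.21 and 9.43. MSRB5 differed between its 16DAF arrays, at 4.29 and 7.20, and its change of -1.95 did not pass the threshold (adjusted p = 0.189).

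Of the 3 gibberellin receptors, 2 rose. GID1A was 5.77 and 6.51 at 16DAF and 9.66 and 9.34 in dry seeds, 10.3-fold higher (log2 change 3.36, SE 0.229, adjusted p = 2.3e-06). GID1C went from 4.56 and 5.41 to 7.36 and 6.72, a rise of 2.06 (SE 0.329, adjusted p = 0.000642). The third receptor, GID1B, changed by 0.06 and did not pass the threshold. The receptors bind gibberellin and then the DELLA repressors, which the F-box protein SLY1 marks for breakdown. SLY1 was 5.47 and 5.66 at 16DAF and 6.44 and 6.13 in dry seeds, a rise of 0.72 at an adjusted p of 0.0492. That call was lost in several alternatives, with an adjusted p of 0.242 without WT dry replicate 1. Of 40 genes in the gibberellin list 5 were measured, and 3 of the 5 probe sets rose (60%, against 20.4% of all). The fifth was matched through a shared symbol only.

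Of 158 listed auxin genes 12 were measured, all of the IAA or GH3 families. Of these 6 fell (50%, against 16.9% of all probe sets) and none rose (median -0.71). IAA29, a repressor of auxin response, was 5.27 and 5.97 at 16DAF and 4.15 and 4.25 in dry seeds, a fall of 1.42 (SE 0.248, adjusted p = 0.00112). IAA34 of the same family fell by 1.18, from 6.63 and 6.83 to 5.53 and 5.58. GH3.3, which conjugates auxin to amino acids, was 5.18 and 4.82 and then 3.76 and 3.75. GH3.9 and WES1 of the same enzyme family fell by 1.69 and 1.46. The call for WES1 was lost without WT 16DAF replicate 1 (-1.12, adjusted p = 0.0906) or without WT dry replicate 1 (-1.29, adjusted p = 0.0853).

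**Figure D2:**
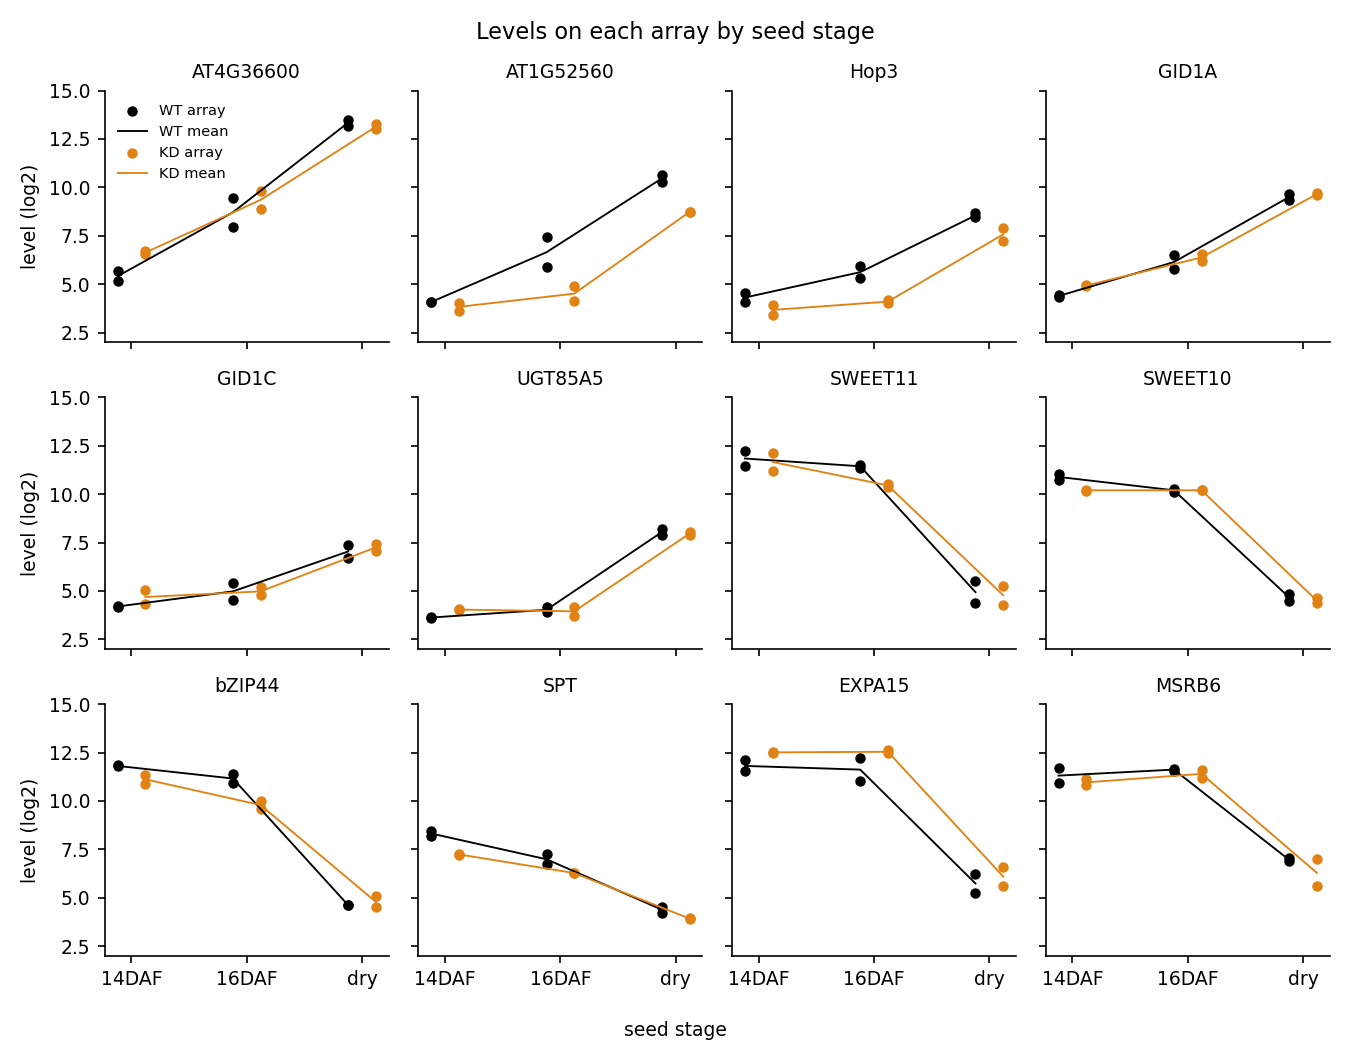
Levels (log2, vertical axis) of 12 genes at 14DAF, 16DAF and in dry seed (horizontal axis); each point is 1 array, lines join group means, WT in black and KD in orange. GID1A and AT4G36600 rise over both intervals, while SWEET11, SWEET10, bZIP44, EXPA15 and MSRB6 are high at 14DAF and 16DAF and low in the dry seed, where bZIP44 lies at 4.61 and 4.64.

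Among transcription factors of the lists, bZIP44 had the steepest fall. It was 11.41 and 10.91 at 16DAF and 4.61 and 4.64 in dry seeds, 92.7-fold lower (log2 change -6.54, SE 0.242, adjusted p = 6.6e-08). Its level at 14DAF had been 11.84 and 11.79, so the WT means fell by far more after 16DAF than from 14DAF to 16DAF. The later interval is of unknown length. SPT (SPATULA), a factor known for repressing germination in dormant seeds, was 7.24 and 6.73 and then 4.24 and 4.55, a fall of 2.59 (SE 0.184, adjusted p = 2.93e-06). It had also fallen by 1.33 from 14DAF to 16DAF.

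EEL and BZIP53, which bind promoters of maturation genes, fell too. EEL stood at 10.52 and 10.62 at 16DAF and at 8.47 and 8.32 in dry seeds, and BZIP53 at 9.82 and 10.39 and then 8.77 and 8.86. With SPT they make up all 3 measured members of the dormancy and maturation list. Of the 22 bZIP probe sets, 4 fell (18.2%, near the 16.9% of all) and none rose, and the median change was -0.10. With arrays centred on their medians 3 fell and 2 rose. PHV, a homeodomain factor of organ polarity, fell by 1.31, and HAT2, an auxin-responsive homeodomain factor, by 0.73, and no further homeobox gene was measured. Of 7 WRKY factors only WRKY22 passed the threshold, with a change from 8.41 and 7.15 to 5.58 and 4.97. Without WT 16DAF replicate 2 or without WT dry replicate 2, 2 of the 7 fell.

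Seed storage proteins were measured for 6 probe sets, of which 3 fell and 1 rose. One of the 6, AT2G05580, was matched by symbol only, and its change of -0.70 did not pass the threshold (adjusted p = 0.117). AT1G03890 was at 13.82 and 13.83 at 16DAF and at 12.12 and 12.21 in dry seeds, a fall of 1.66 (SE 0.214, adjusted p = 0.000155). AT4G36700 fell by 1.18 from 12.80 and 12.68. PAP85 changed by 0.07. The rise, AT2G18540 by 0.92, lay near the threshold (adjusted p = 0.0436) and was lost in most alternatives. Among these were quantile normalization (0.76, adjusted p = 0.0805) and the fit to the compared arrays only (adjusted p = 0.0513). It was also lost without WT 16DAF replicate 1, without WT dry replicate 2 or without any single KD array at 16DAF or dry. The fall of AT2G28490 by 0.55 became -0.34 when arrays were centred on their medians (adjusted p = 0.0846). It was lost in other alternatives too, such as the fit to the compared arrays only (adjusted p = 0.0533).

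Oil synthesis was represented by 2 of 66 listed genes, both acyl carrier protein thioesterases, which release fatty acids in the plastid. FaTA was 8.42 and 8.01 at 16DAF and 4.26 and 4.24 in dry seeds, a fall of 3.96 (SE 0.167, adjusted p = 1.49e-07), and it had already fallen by 1.52 before 16DAF. FATB went from 10.32 and 10.05 to 8.66 and 8.91. OLEO3, an oleosin that coats oil bodies, went from 13.39 and 12.99 to 10.50 and 11.01.

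Of 33 listed genes of fat breakdown 3 were measured, and all 3 rose, in WT and in every alternative. AIM1, a peroxisomal enzyme of fatty acid beta-oxidation, was 9.20 and 9.74 at 16DAF and 11.45 and 11.26 in dry seeds, a rise of 1.89 (SE 0.21, adjusted p = 5.68e-05). SDP1, the lipase that starts the breakdown of stored oil, went from 8.59 and 9.13 to 10.25 and 10.45. ICL, isocitrate lyase of the glyoxylate cycle, went from 11.50 and 11.33 to 13.17 and 13.11. None of these groups overlapped, as was so for every call.

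Sugar transporters of the SWEET family, which let sugars cross membranes down their gradient, contained some of the largest falls in the seed. SWEET11, which together with SWEET12 and SWEET15 is known to carry sucrose from the seed coat towards the embryo, was 11.53 and 11.35 at 16DAF and 4.38 and 5.50 in dry seeds. That is 90.5-fold lower (log2 change -6.50, SE 0.445, adjusted p = 2.36e-06). SAG29, which is SWEET15, was 10.67 and 10.47 and then 5.14 and 5.11, a fall of 5.45 (SE 0.191, adjusted p = 5.33e-08). SWEET10 went from 10.12 and 10.27 to 4.50 and 4.83, and SWEET7 from 8.45 and 8.83 to 3.79 and 4.12. Between 14DAF and 16DAF these 4 had changed by -0.40, -0.76, -0.70 and -0.23.

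Not every member fell. SWEET6 rose from 5.05 and 6.14 to 8.94 and 8.47, a change of 3.11 (SE 0.296, adjusted p = 1.94e-05), and SWEET1 from 6.41 and 6.32 to 9.53 and 8.96. SWEET4 and SWEET2 fell by 0.86 and 0.67. ATSPS4F, a sucrose-phosphate synthase of sucrose synthesis, was 7.57 and 8.01 at 16DAF and 3.26 and 3.53 in dry seeds, 21.0-fold lower. In all, 7 of 18 probe sets of sugar synthesis, cleavage and transport fell and 2 rose, while the median was -0.15. In bulk seeds, fewer cells of a type and less RNA per cell cannot be told apart, and this holds for each fall given here.

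OCT1, an organic cation and carnitine transporter, was at or above 11.88 on both 16DAF arrays and at 4.36 and 5.67 on the dry arrays, a fall of 6.92 (SE 0.365, adjusted p = 4.93e-07). GTR2, singled out after its values were seen, imports glucosinolates and is known for loading them into seeds. It was 8.57 and 8.41 at 16DAF and 5.23 and 5.41 in dry seeds. AOP3, an enzyme of glucosinolate side chains, was 11.12 and 10.73 and then 4.73 and 5.22, and it had fallen by 1.72 before 16DAF. SDT, which makes the disinapoyl spermidine of seeds, went from 9.92 and 9.82 to 5.01 and 4.94.

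EXPA15, an expansin that loosens walls, was 12.23 and 11.02 at 16DAF and 5.23 and 6.24 in dry seeds, 59.3-fold lower (log2 change -5.89, SE 0.444, adjusted p = 4.45e-06). EXPA8 rose from 4.78 and 4.74 to 6.83 and 6.91. Of 19 expansin probe sets 3 fell (15.8%, against 16.9% of all) and 1 rose, and with arrays centred on their medians 2 fell and 4 rose. Among xyloglucan endotransglucosylases, which cut and rejoin wall xyloglucan, 3 of 10 fell and none rose, or 3 and 1 with centring. XTH16 was 7.48 and 6.57 and then 3.37 and 4.17, and EXGT-A3 was 8.47 and 9.07 and then 6.81 and 6.49.

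CSLC5 and CSLC12, synthases of the xyloglucan backbone, fell by 3.44 (SE 0.281, adjusted p = 7.32e-06) and 2.09 (SE 0.329, adjusted p = 0.000579). CSLC5 was 11.75 and 11.18 at 16DAF and 7.76 and 8.29 in dry seeds. GAUT15 of the pectin-making galacturonosyltransferase family went from 7.82 and 7.40 to 5.14 and 5.48, and PME61, a pectin methylesterase, from 5.75 and 5.85 to 4.23 and 3.59. Outside these lists, GH9C2, an endoglucanase, was 10.07 and 8.64 and then 4.65 and 4.54. TBL38, of a family that acetylates wall polymers, went from 10.61 and 9.96 to 4.16 and 5.08, and PRXR1, a peroxidase, from 13.51 and 13.23 to 7.70 and 7.61. The third list, of other wall enzymes and proteins, had 5 falls among 16 probe sets and no rise, or 4 and 1 with centring.

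UDP-glucosyltransferases, which attach glucose to hormones, phenolics and foreign compounds, rose in 18 of 51 probe sets and fell in 6, with a median of 0.20, and in the alternatives 17 to 22 rose. UGT76E12 was 3.62 and 4.91 at 16DAF and 8.60 and 8.88 in dry seeds, a rise of 4.47 (SE 0.38, adjusted p = 9.44e-06). UGT85A5 was 3.89 and 4.17 and then 7.91 and 8.18, 16.2-fold higher (adjusted p = 1.8e-07). UGT76E11 went from 6.57 and 7.53 to 10.30 and 10.14, and UGT87A2 from 5.89 and 6.85 to 9.78 and 10.15.

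By family number, a grouping made after the values were seen, 4 of 8 UGT76 and 4 of 5 UGT85 members rose, with medians of 1.0 and 1.93. None of 3 UGT74 members and 1 of 7 UGT73 members did. UGT73C7 was that member, at 3.32 and 3.56 and then 5.62 and 6.50. UGT78D1, a flavonol rhamnosyltransferase, was the largest fall of the family, from 8.31 and 8.01 to 5.03 and 5.37, and UGT78D2, which glucosylates flavonols and anthocyanins, rose by 1.11.

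Of 22 cytochrome P450s 5 rose (22.7%) and 4 fell (18.2%), near the 20.4% and 16.9% of all probe sets. With centring 7 rose and 4 fell. CYP78A9, known for promoting fruit and seed size, was 10.24 and 10.51 at 16DAF and 5.74 and 6.12 in dry seeds, 21.8-fold lower (log2 change -4.45, SE 0.21, adjusted p = 2.58e-07). CYP71B6 rose from 6.28 and 6.71 to 9.18 and 9.22, and CYP71B28 from 6.87 and 7.53 to 9.26 and 8.90. Of 14 glutathione S-transferases 2 rose and 1 fell. GSTU28 went from 4.07 and 4.85 to 6.23 and 5.91, and GSTL3 from 6.02 and 6.91 to 4.35 and 3.83.

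Of 35 listed genes of protein folding in the secretory pathway, 6 were measured and 3 fell (50%, against 16.9% of all probe sets). Some vacuolar peptidases fell as well. ATERDJ3B, a co-chaperone of the endoplasmic reticulum, was 9.10 and 9.35 at 16DAF and 6.02 and 6.10 in dry seeds, a fall of 3.17 (SE 0.194, adjusted p = 1.16e-06). CRT1b, a calreticulin, went from 9.65 and 9.20 to 6.69 and 6.24. Of the 6 probe sets of this list 3 fell, as they did in number in each of the 15 alternatives. The third fall was ATCRT1 (-0.78), which was matched by symbol only and may not belong to the list. Of 33 vacuolar peptidases 8 fell (24.2%, against 16.9% of all) and 2 rose (6.06%, against 20.4%). scpl48, a serine carboxypeptidase-like protein, was 10.58 and 10.51 and then 3.86 and 4.69, 77.2-fold lower. GAMMA-VPE, a vacuolar processing enzyme, went from 10.45 and 10.15 to 9.15 and 9.79. Without WT 16DAF replicate 1 or WT dry replicate 1 the falls numbered 5.

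Autophagy genes, which enclose cell contents for breakdown in the vacuole, rose in 4 of 11 probe sets and fell in 1. These are 36.4% and 9.09%, against 20.4% and 16.9% of all probe sets, and the median was 0.43. ATG8H was 8.99 and 9.81 at 16DAF and 11.26 and 11.19 in dry seeds, a rise of 1.82 (SE 0.251, adjusted p = 0.000238), and ATG8F went from 9.74 and 10.13 to 11.20 and 11.34. ATG8D of the same family fell by 0.81, from 9.44 and 9.83 to 8.79 and 8.86. After quantile normalization 4 rose and 3 fell. The list median was -0.01 without WT 16DAF replicate 1 and 0.57 without WT 16DAF replicate 2, so its direction depended on the array.

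**Figure D3:**
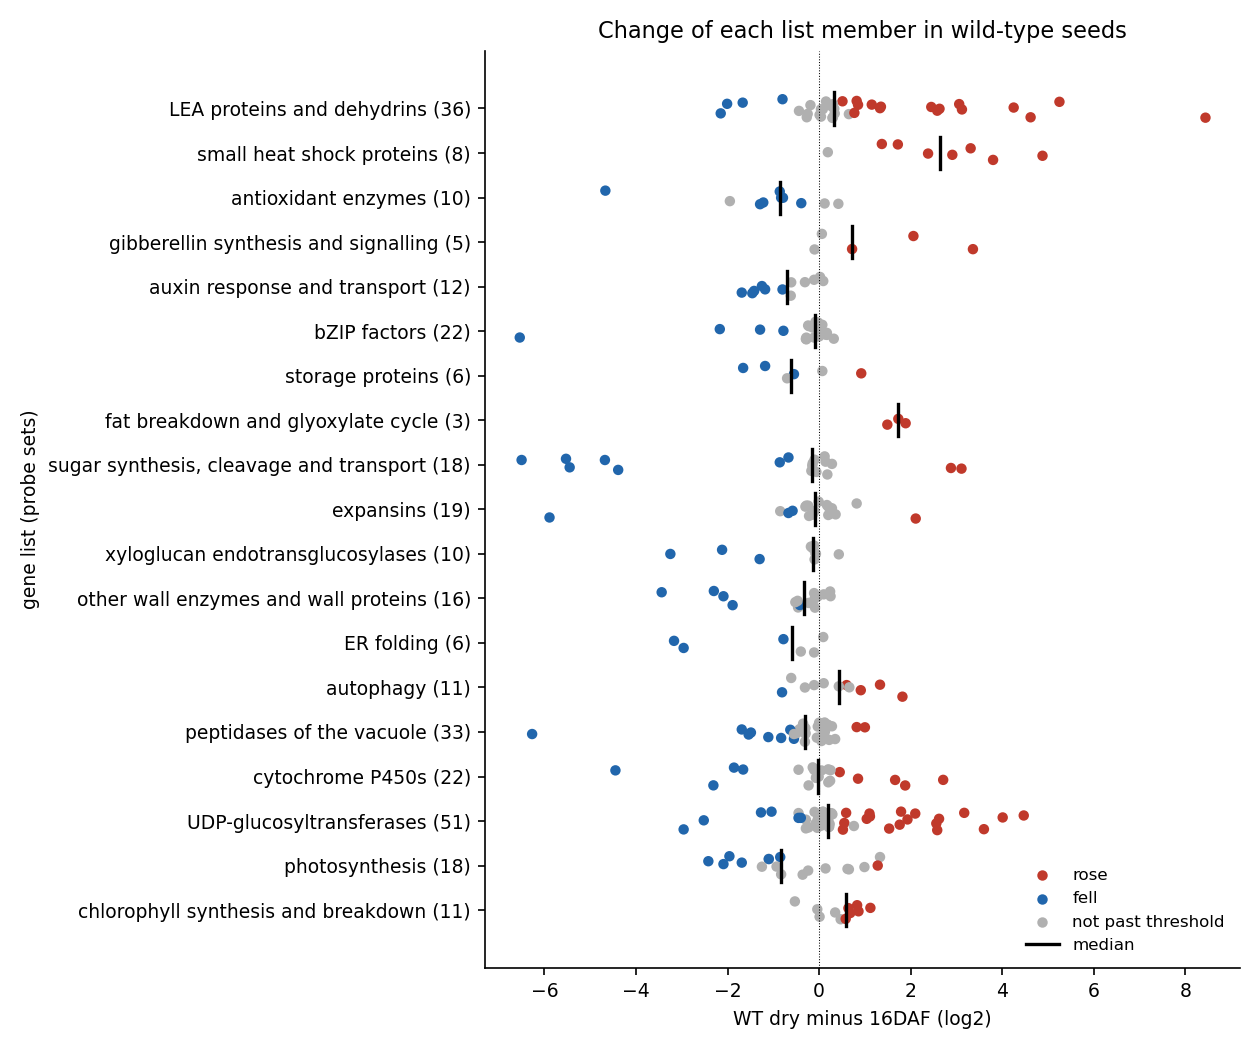
Change from 16DAF to dry WT seed (log2, horizontal axis) of every probe set in 19 gene lists (vertical axis, number of probe sets in brackets). Red points rose and blue points fell at an adjusted p of 0.05, grey points did not pass it and black bars are list medians; small heat shock proteins lie to the right, and sugar and expansin lists hold long tails of falls with medians near 0.

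Genes of photosynthesis had a median change of -0.84, with 6 of 18 falling and 1 rising. Of the 18, 7 are plastid genome genes, which are also in the plastid list. Without WT 16DAF replicate 2 the median was -0.55. With only the arrays compared 9 fell and 3 rose, and with the crossed replicate block, chosen after seeing the data, 10 fell and 5 rose. PSAE-1 of photosystem I went from 6.63 and 6.84 to 4.36 and 4.27. LHCB4.3, a light-harvesting protein, went from 7.77 and 6.94 to 5.12 and 5.41, a fall of 2.09 (SE 0.275, adjusted p = 0.000174). SBPASE of the Calvin cycle went from 5.59 and 5.25 to 4.41 and 4.23. From 14DAF to 16DAF, when 9.2% of all probe sets rose and 10.3% fell, 10 of the 18 fell. The rise was LHCB4.2, which was lost without WT 16DAF replicate 2 or WT dry replicate 1. Enzymes of the tetrapyrrole pathway rose in 6 of 11 probe sets and none fell, with a median of 0.58. The changes were small, with HEME1 going from 5.45 and 5.36 to 6.48 and 5.99, and the rises numbered 4 or 5 when any 1 of the 4 arrays was left out.

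Transcripts of the plastid genome did not move as one. Of 69 probe sets 28 rose (40.6%, against 20.4% of all) and 10 fell (14.5%, against 16.9%), and the median was 0.52. Without WT dry replicate 1 the median was 0.28, with 20 rises, and without WT 16DAF replicate 1 it was 0.31, with 24. By classes formed from the symbols after the values were seen, 12 of the 28 rises were of ribosomal protein genes, 3 of RNA polymerase genes, 5 of NADH dehydrogenase-like genes and 6 of genes in no other class. The ATP synthase and cytochrome b6f class and the photosystems had 1 rise each. Plastid ribosomal protein genes rose in 12 of 15 probe sets with a median of 1.63 and none fell. The gene rps2 was 4.45 and 4.73 at 16DAF and 7.79 and 7.39 in dry seeds, a rise of 3.0 (SE 0.215, adjusted p = 3.13e-06). rpl14 went from 8.41 and 8.69 to 10.34 and 10.33. Of the 4 plastid RNA polymerase subunits 3 rose, with rpoC2 going from 8.51 and 8.62 to 10.73 and 10.46.

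Photosystem genes of the same genome fell in 9 of 20 probe sets and rose in 1, with a median of -0.69. Without WT dry replicate 2 the counts were 6 and 3. psbA, which encodes the D1 protein of photosystem II, was 10.75 and 10.94 at 16DAF and 9.08 and 9.03 in dry seeds, a fall of 1.79 (SE 0.143, adjusted p = 6.31e-06). psbZ went from 11.86 and 11.63 to 9.96 and 9.61, and psbC from 11.92 and 11.79 to 10.29 and 10.31. petB, a cytochrome b6 gene, went from 11.99 and 11.60 to 10.13 and 9.90. Of 10 genes of the plastid NADH dehydrogenase-like complex 5 rose and none fell, but without WT dry replicate 1 the rises numbered 2 and without WT 16DAF replicate 1 they numbered 3.

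Over the preceding interval, from 14DAF to 16DAF, 37 of the 69 plastid probe sets fell and none rose. The medians then were -0.73 for ribosomal proteins and -0.81 for photosystem genes. The 2 intervals share the 16DAF arrays, so their values are given side by side only. In KD seeds, where 19.6% of all probe sets rose and 15.3% fell on drying, 12 of the 69 rose and 15 fell, with medians of 0.69 for ribosomal proteins and -1.04 for photosystem genes. The difference between the genotypes passed its threshold for psbJ and rpl33 only, against 1.38% of all probe sets.

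Mitochondrial genome transcripts rose in 13 of 23 probe sets (56.5%, against 20.4% of all) and fell in 3 (13%, against 16.9%). The median was 0.55, and the 23 probe sets stand for 16 genes. How well the 2-cycle amplification copied transcripts of the plastid and mitochondrial genomes was not tested. nad6, a subunit of complex I, was 4.77 and 5.69 at 16DAF and 8.51 and 8.36 in dry seeds, a rise of 3.21 (SE 0.258, adjusted p = 6.78e-06). cox2, a subunit of cytochrome oxidase, went from 6.35 and 6.16 to 8.99 and 9.11, and cox1 from 9.55 and 10.48 to 11.63 and 11.29. In KD seeds 12 of the 23 rose and none fell. Without WT dry replicate 1 none of the 3 falls in WT, among them ccb382 (-1.32), was called. 

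**Figure D4:**
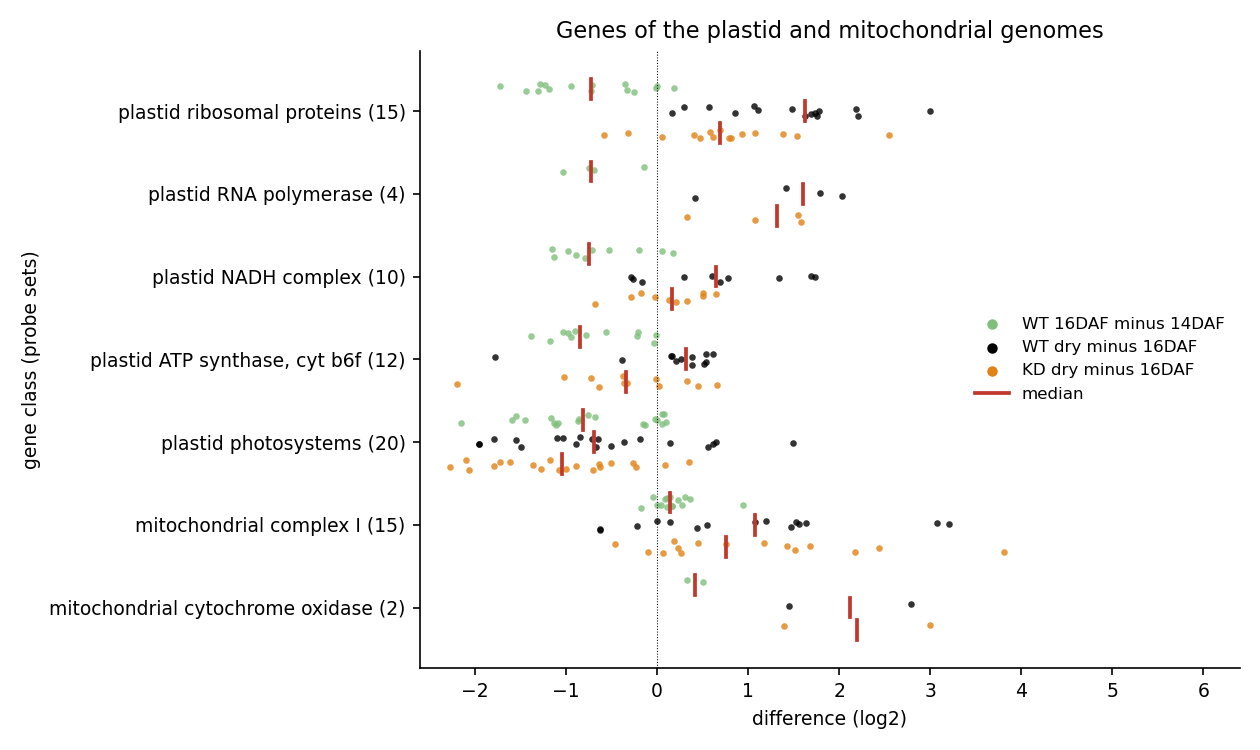
Differences (log2, horizontal axis) for classes of genes of the plastid and mitochondrial genomes (vertical axis, number of probe sets in brackets), with 1 point per probe set and red bars at class medians. Green points give WT 16DAF minus 14DAF, black points WT dry minus 16DAF and orange points KD dry minus 16DAF; in WT the ribosomal protein median is -0.73 for the first interval and 1.63 for the second.

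In the list of the citric acid cycle and respiration 5 of 15 probe sets rose (33.3%, against 20.4% of all). Only 1 fell (6.67%, against 16.9%). The largest rise in the list, 2.79, equals that of cox2, so the list may share genes with the mitochondrial genome list. NDB2, an external NADH dehydrogenase of mitochondria, went from 7.81 and 8.34 to 9.41 and 9.61, a rise of 1.44 (SE 0.207, adjusted p = 0.000327). SDH2-1, an iron-sulfur subunit of complex II, fell from 7.67 and 7.73 to 6.57 and 6.48, while SDH2-2, a second gene for this subunit, went from 5.02 and 5.91 to 7.0 and 6.48. The rise of SDH2-2 was not called without WT 16DAF replicate 1 (0.83, adjusted p = 0.092) or without WT dry replicate 1 (1.01, adjusted p = 0.0961).

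In the breakdown of leucine, MCCB, a subunit of methylcrotonyl-CoA carboxylase, went from 5.73 and 6.6 to 8.72 and 8.43, and MCCA, its partner subunit, from 7.53 and 7.34 to 8.62 and 8.97. AT5G09300, a member of the same list, moved the other way, from 9.25 and 8.93 to 5.32 and 5.84, a fall of 3.51 (SE 0.242, adjusted p = 2.47e-06). Of the 9 probe sets 3 rose and 2 fell. Without WT 16DAF replicate 1 or WT dry replicate 1 only 1 fell. MGL, which breaks down methionine, was 11.52 and 11.18 at 16DAF and 9.57 and 9.39 in dry seeds.

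Many of the largest changes were in genes known here by locus code only. AT5G24490 was 3.77 and 3.82 at 16DAF and 9.63 and 9.28 in dry seeds, a rise of 5.66 (SE 0.335, adjusted p = 9.58e-07), and AT3G16120 was 3.31 and 3.75 and then 8.65 and 8.80. Both began near the bottom of the scale and had changed by -0.46 and 0.46 in the preceding interval. AT4G27450 went from 5.87 and 6.95 to 12.40 and 12.01. LCR67, of a family of small cysteine-rich proteins, had unlike 16DAF arrays, at 6.0 and 10.81, against 13.24 and 14.32 in dry seeds. Its rise of 5.38 became 2.97 without WT 16DAF replicate 1 (adjusted p = 0.149).

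Among the falls, AT5G09480 was 11.80 and 11.38 at 16DAF and 3.80 and 3.67 in dry seeds, 232-fold lower, and AT1G12010 was 11.59 and 11.94 and then 4.01 and 4.01, 216-fold lower. AT3G62730 was 12.77 and 12.75 and then 5.59 and 5.94. Over the 2 days before 16DAF these 3 had changed by -0.23, -0.84 and -0.65. Of 32 named genes that rose by at least 4, WT 16DAF replicate 2 was above replicate 1 in 27.

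KD seeds, on arrays separate from those of WT, changed in the same direction for 96% of the WT rises and 95.5% of the WT falls. This share was not computed over all probe sets. Of the WT rises 71.9% were also called as rises in KD seeds, where 19.6% of all probe sets rose. Of the WT falls 70.9% were also called as falls, against 15.3% of all. Both tests used the same spread for each probe set, from the fit to all arrays, so the 2 sets of calls are not independent. The difference between the 2 drying changes was itself tested as an interaction and was called for 313 probe sets (1.38%), of which 174 were higher in KD (0.765%) and 139 lower (0.611%). In the alternatives the count ran from 69 to 425.

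For EXGT-A3, KD seeds held 8.76 and 8.88 at 16DAF and 8.85 and 8.77 when dry, while WT seeds went from 8.47 and 9.07 to 6.81 and 6.49. The KD change exceeded the WT change by 2.11 (SE 0.273, adjusted p = 0.00793). AT3G09440 of the Hsp70 list rose in KD seeds, from 7.75 and 8.27 to 9.16 and 9.63, and fell in WT, a difference of 2.37 (SE 0.31, adjusted p = 0.00828). PDF1.4, a plant defensin, rose in both, in WT from 4.26 and 4.53 to 6.24 and 5.53 and in KD from 4.81 and 4.48 to 9.31 and 9.25.

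In the other direction, AUR2, an Aurora kinase of cell division, rose in WT from 6.27 and 6.38 to 7.57 and 8.00 and fell in KD from 7.39 and 7.91 to 6.39 and 6.75. AT1G68670 rose in WT from 5.68 and 5.80 to 8.65 and 8.08, whereas the KD arrays lay at 8.99 and 8.43 at 16DAF and at 8.48 and 8.52 when dry. AT1G71691 had reached a low level in WT by 16DAF, at 6.75 and 6.04 after 10.65 and 11.36 at 14DAF, and went to 4.84 and 5.45. In KD it was still at 9.92 and 10.50 at 16DAF and then 4.94 and 5.23.

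**Figure D5:**
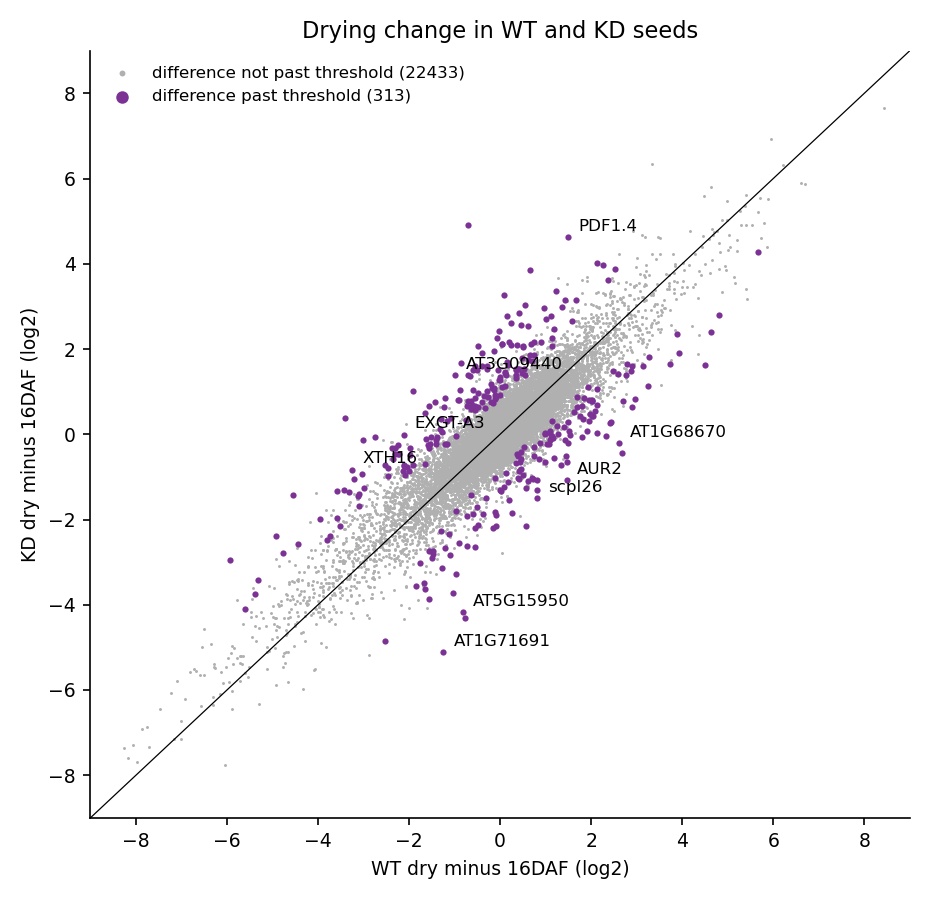
Drying change in KD seeds (log2, vertical axis) against that in WT seeds (log2, horizontal axis) for every probe set; the line marks equal change. Purple points are the 313 probe sets whose difference passed an adjusted p of 0.05, with PDF1.4 and AT3G09440 above the line and AT1G71691 and AT5G15950 below it.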

How the data were processed

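The authors deposited log2 values for 12 arrays. Per the submitters' processing notes RMA was used, and Partek is listed beside it; no version, setting or order of steps is given there, and it is unknown if all arrays went through RMA in 1 run. A shift common to most transcripts could be lost in such values. Per the labels' protocols, RNA was treated with DNase and amplified in the 2-cycle Affymetrix procedure. No per-sample column was left unused.

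Of 22810 probe sets, 64 controls were removed and 22746 tested. The platform annotation gave 1 gene for 13513 (59.4%), several for 503 and none for 8730. A match in the TAIR10.1 gene table was found for 13436.

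A linear model of 6 group means was fitted to all arrays with limma 3.58.1 in R 4.3.3 (lmFit, eBayes, 6 residual and 4.16 prior degrees of freedom). Adjusted p-values are two-sided limma values with Benjamini-Hochberg adjustment across all tested probe sets. Rose, fell and called mean an adjusted p under 0.05. Errors beside changes are standard errors of this model. In simulated data with 200 changed probe sets it recovered 52% of changes of 1 on the log2 scale and 93% of changes of 2. Of the simulated calls 5.2% were false. Far fewer probe sets were changed there than were called in the seeds.

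The comparison, its named genes and the 47 lists of genes were chosen with earlier results of these data known. Lists were matched by locus code or symbol, 43 had a measured member, and they are described by counts and medians. Named by rule are the 15 largest rises and falls, the same among genes with a symbol, up to 6 members with the largest change per list, and the 6 largest differences from KD in each direction. Further list members were named after their values were seen. Alternatives were median centring, quantile normalization, a minimum signal of 6, a fit to the compared arrays only, a trended and robust eBayes, a replicate block, a minimum change of 1, leaving out each of the 8 arrays at 16DAF or dry in turn, leaving out both arrays with conflicting labels, and, added after seeing the data, a crossed replicate block. No 14DAF array was left out. The 15 alternatives given for lists are these without the minimum signal and the minimum change. The 15 given for differences from KD hold the minimum signal in place of the crossed replicate block, which was fitted to WT arrays only. Their fit to the compared arrays used the 8 arrays at 16DAF or dry. Promoters were not used here. Computing and plotting used Python 3.11.15 with pandas 2.3.3 and matplotlib 3.10.9.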

Additional observations from a re-analysis of the deposited data

Results flagged for a closer look

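For 15 named genes the change from 16DAF to dry seed differed between KD and WT seeds in the interaction test of limma. Differences are given as the KD change minus the WT change on the log2 scale.

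In the direction of a higher change in KD stood PDF1.4 with 3.15, AT1G72060 with 2.50, XTH16 with 2.42, AT1G22890 with 2.38, AT3G09440 with 2.37 and AT1G55450 with 2.33. EXGT-A3 with 2.11, ATMDAR2 with 1.65 and Hsp70-2 with 1.31 followed. PDF1.4, AT3G09440 and EXGT-A3 were called in all 15 alternatives, AT1G22890 in all 14 that could be run, and ATMDAR2 in 13. XTH16 was called in 8 alternatives, Hsp70-2 in 7, and AT1G72060 and AT1G55450 in 6 each. For XTH16 the KD arrays were already at 4.79 and 4.52 at 16DAF, below both WT 16DAF arrays at 7.48 and 6.57. AT1G22890, AT1G72060 and AT1G55450 did not change past the threshold in WT and rose in KD dry seeds, to 5.40 and 5.63 in the case of AT1G22890.

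A lower change in KD was found for AT1G71691 with -3.88, AT5G15950 with -3.36, AT1G68670 with -2.83, AT5G19730 with -2.68, AUR2 with -2.54 and scpl26 with -2.31. AT1G71691, AT5G15950, AT1G68670 and scpl26 were called in all 15 alternatives, AUR2 in 14 and AT5G19730 in 12. Without the 2 arrays whose source names conflict with their titles the adjusted p of AUR2 was 0.0528. AT5G15950 fell in KD from 9.59 and 9.91 to 5.15 and 5.99 and in WT from 7.75 and 7.42 to 6.63 and 6.90. Its WT fall was lost in some alternatives, among them centring on array medians (-0.61, limma adjusted p = 0.0805). The WT falls of AT1G71691 and AT5G19730 were also lost in some alternatives. scpl26 rose in WT by 0.82 and fell in KD by 1.49. The WT rise was lost without WT 16DAF replicate 2 (0.66, limma adjusted p = 0.0518) and without WT dry replicate 1 (0.74, limma adjusted p = 0.0585).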

How the results depend on the processing

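The count of 8476 changed probe sets was 9822 with arrays centred on their medians, 8405 after quantile normalization, 6685 with the low-signal filter, 6853 with only the arrays compared, 8418 with a trended and robust eBayes and 6401 when both arrays with a source name against their title were left out. Leaving out 1 WT array gave 6337 to 8200. With a minimum change of 1 the count was 4596. The replicate block gave 7937. The correlations of replicate differences between groups ran from -0.33 to 0.417, so the numbers were not shown to pair the samples. For WT 16DAF and dry it was -0.328, and the crossed pairing, chosen after seeing the data, gave 7569. The 313 differences from KD became 176 with only the arrays compared, 164 with the replicate block, 69 when both of those arrays were left out, and 72 to 425 when 1 array was left out. The share of rises lay between 51.5% and 57% except with centring (70.5%). No called result changed sign. The causes were not tested. Of 180 named calls, 28 were lost under at least 1 alternative. The precision is limited by 2 arrays a group, and dim signals have no detection call.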

Other observations

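Of 9 tubulin and actin probe sets 2 fell (22.2%, against 16.9% of all) and none rose, with a median of -0.18 against 0.02 for all. TUA6, an alpha-tubulin, was 9.33 and 9.94 at 14DAF, 7.26 and 6.75 at 16DAF and 4.88 and 4.97 in dry seeds, so it fell over both intervals. Of 6 histone probe sets 2 fell (33.3%), with a median of -0.41, among them HTB1, a histone H2B, from 7.86 and 7.74 to 7.16 and 6.89. CDC27a, a subunit of the anaphase-promoting complex, went from 4.85 and 4.61 to 5.35 and 6.03, a rise of 0.96 (SE 0.207, limma adjusted p = 0.00407).

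SBE2.2, a starch branching enzyme, was 7.04 and 7.94 at 14DAF, 5.93 and 5.69 at 16DAF and 4.7 and 4.48 in dry seeds. DFR, an enzyme of seed coat pigments, fell from 6.47 and 6.27 to 4.23 and 4.60. Of the 3 measured members of the seed coat list it was the only 1 called (33.3%, against 16.9% of all probe sets that fell). The changes of the 3 ran from -1.96 to -0.31.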
